A study of Homo sapiens with 8 samples.

Results

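The 31 genes described here make cholesterol and fatty acids, switch that synthesis on and off, or move sterols inside the cell. They were taken by symbol from a deposited table of 20323 genes, in which 33 rows carried the symbols. CYP51A1 and EBP each had a further identifier, ENSG00000285772 and ENSG00000286268, with at most 4 counts in any library, and those 2 rows were not tested. The other 31 rows, 1 per gene, all passed the filter on low counts and had at least 49 counts in every library. They are grouped here by role into fatty acid synthesis (4 genes), the mevalonate steps (7), squalene to lanosterol (3), lanosterol to cholesterol (9), the SREBP machinery (6) and sterol transport (2).

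The cells were H2452, an established line grown from a biphasic pleural mesothelioma, whose genotype the labels give as wild type, kept in medium with serum. In 4 libraries they had been exposed for 48 h to DPT, that is deoxypodophyllotoxin, at 20 nM. This lignan of plants keeps tubulin from assembling into microtubules. In the other 4 they had been kept for 48 h in the solvent DMSO. The series asks which messages DPT changes, in a single cell line, and the labels name no batch and do not pair the libraries.

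Cells build cholesterol from acetyl-CoA through mevalonate, farnesyl pyrophosphate, squalene and lanosterol. The genes of this route are switched on together by the SREBP transcription factors, which are held in the endoplasmic reticulum with their escort SCAP by the INSIG proteins while sterols are plentiful. When sterols run low, SCAP carries SREBP to the Golgi, proteases release the active part, and enzyme and uptake genes are transcribed. SREBP2 mainly serves cholesterol synthesis, and SREBP1 mainly fatty acid synthesis. LXR receptors, which sense oxysterols, raise sterol export and also SREBF1 and SCD.

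Library totals were 16087533 to 16524399 counts with DPT and 14964422 to 17205395 counts with DMSO. DPT replicate 2 and DMSO replicate 3, called the pair below, stood apart from the other 6 libraries on the leading principal component, at 29.26 and 40.76 against -25.60 to -1.02. Interferon-stimulated genes (6 listed) summed to 912 CPM (counts scaled to a common library size) in DPT replicate 2 and 1375 CPM in DMSO replicate 3, against 5730 to 5791 CPM in the other DPT and 6190 to 6267 CPM in the other DMSO libraries. Mitosis genes (5 listed) summed to 1407 and 1357 CPM in the pair, against 761 to 861 CPM in the other DPT and 903 to 937 CPM in the other DMSO libraries. Calls, and values whose call changed, are therefore also given from the 6 libraries without the pair, and counts of calls also with a term for the pair in the model.

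The 9 mesothelial and epithelioid markers were all detected, mostly as the keratins KRT7, KRT8 and KRT18, and summed to 2006 to 3360 CPM with DPT and 3178 to 4614 CPM with DMSO. With DPT 7 of the 9 had a negative log2 fold change and 2, CALB2 and WT1, a positive one. KRT18 and UPK3B fell, while CALB2 was higher without overlap (log2 0.59, adjusted p = 0.0555, and 0.82 in the 6 libraries, adjusted p = 6.27e-05). PDPN was lower without overlap (log2 -0.39, adjusted p = 0.0666). In the 6 libraries 6 of the 9 were called lower and CALB2 higher, where 17.1% and 17.0% of all tested genes were called. Newly called lower there were KRT7 (-0.68, adjusted p = 7.40e-09), KRT8 (-0.56, adjusted p = 5.12e-08), PDPN (-0.49, adjusted p = 0.00247) and MSLN (-0.41, adjusted p = 0.0251). UPK3B was scarce, at 1.14 to 2.39 CPM with DPT and 2.85 to 4.61 CPM with DMSO. KRT5 was scarce too, at 0.419 to 2.82 CPM with DPT and 0.132 to 3.04 CPM with DMSO, highest in the pair. Its log2 fold change was -0.22 (SE 0.774), not called. Of the tissues known for making or storing lipid, the hepatocyte markers ALB, CYP7A1 and TTR summed to at most 0.240 CPM in any library and the adipocyte markers ADIPOQ, PLIN1 and LEP to at most 0.539 CPM. The 5 leukocyte markers summed to 94.0 to 145 CPM with DPT and 90.9 to 130.1 CPM with DMSO, nearly all of it CD68, at 87.9 to 128 CPM and 82.9 to 104 CPM, and CD14, at 5.39 to 17.4 CPM and 7.42 to 26.3 CPM. PTPRC, CD3E and LYZ each stayed under 1 CPM in every library. In the 6 libraries CD68 was called higher and CD14 lower with DPT, and the part of such cells in the results was not tested. Endothelial markers (4 listed) summed to 3.54 to 9.45 CPM with DPT and 1.46 to 4.81 CPM with DMSO, with KDR higher in DPT, and their part in the results was not tested. In bulk RNA, fewer cells of a type and less RNA per cell cannot be told apart.

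Within the pathway enzymes and regulators leaned opposite ways with DPT. Of the 19 sterol enzymes 16 had a positive log2 fold change, where 49.8% of all tested genes had one. IDI1, SQLE and NSDHL were called at 1.20-fold to 1.297-fold, and PMVK, FDFT1 and LSS were close to level. Every gene of the SREBP machinery had a negative log2 fold change, with INSIG2 and MBTPS1 called and INSIG1 at only -0.07. ACACA, which starts fatty acid synthesis, and TM7SF2, a sterol reductase, also fell. By the quasi-likelihood test of edgeR across the 8 libraries, with p adjusted over the 12648 genes tested and a call at an adjusted p under 0.05, 3 of the 31 members rose and 4 fell. That is 22.6% of the members, where 11.0% of all tested genes were called (5.68% higher and 5.29% lower). The median log2 fold change of the members was 0.03, against 0.00 over all tested genes, since rises and falls offset each other.

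The DPT libraries and the DMSO libraries did not overlap in 14 members (45.2%), of which 9 were higher and 5 lower in DPT. Among all tested genes 18.2% did not overlap (9.50% higher and 8.73% lower). With the term for the pair 11 members rose and 8 fell, where 34.0% of all tested genes were called (16.9% higher and 17.0% lower). In the 6 libraries 10 rose and 8 fell, against 34.1% of all tested genes (17.0% higher and 17.1% lower). The 7 members called with 8 libraries were called in the same direction in each of these fits. Both fits use libraries of the 8-library fit and call a larger share of genes, so this is no independent check. With 1 library left out, ACACA, SQLE, TM7SF2 and MBTPS1 each lost their call in 6 of the 8 fits. Of the 18 members called in the 6 libraries, all 18 had the same sign in the pair, where DPT replicate 2 was set against DMSO replicate 3 and neither had entered that fit. Of the 4327 genes called in the 6 libraries, 86.0% had the same sign there.

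**Figure D1:**
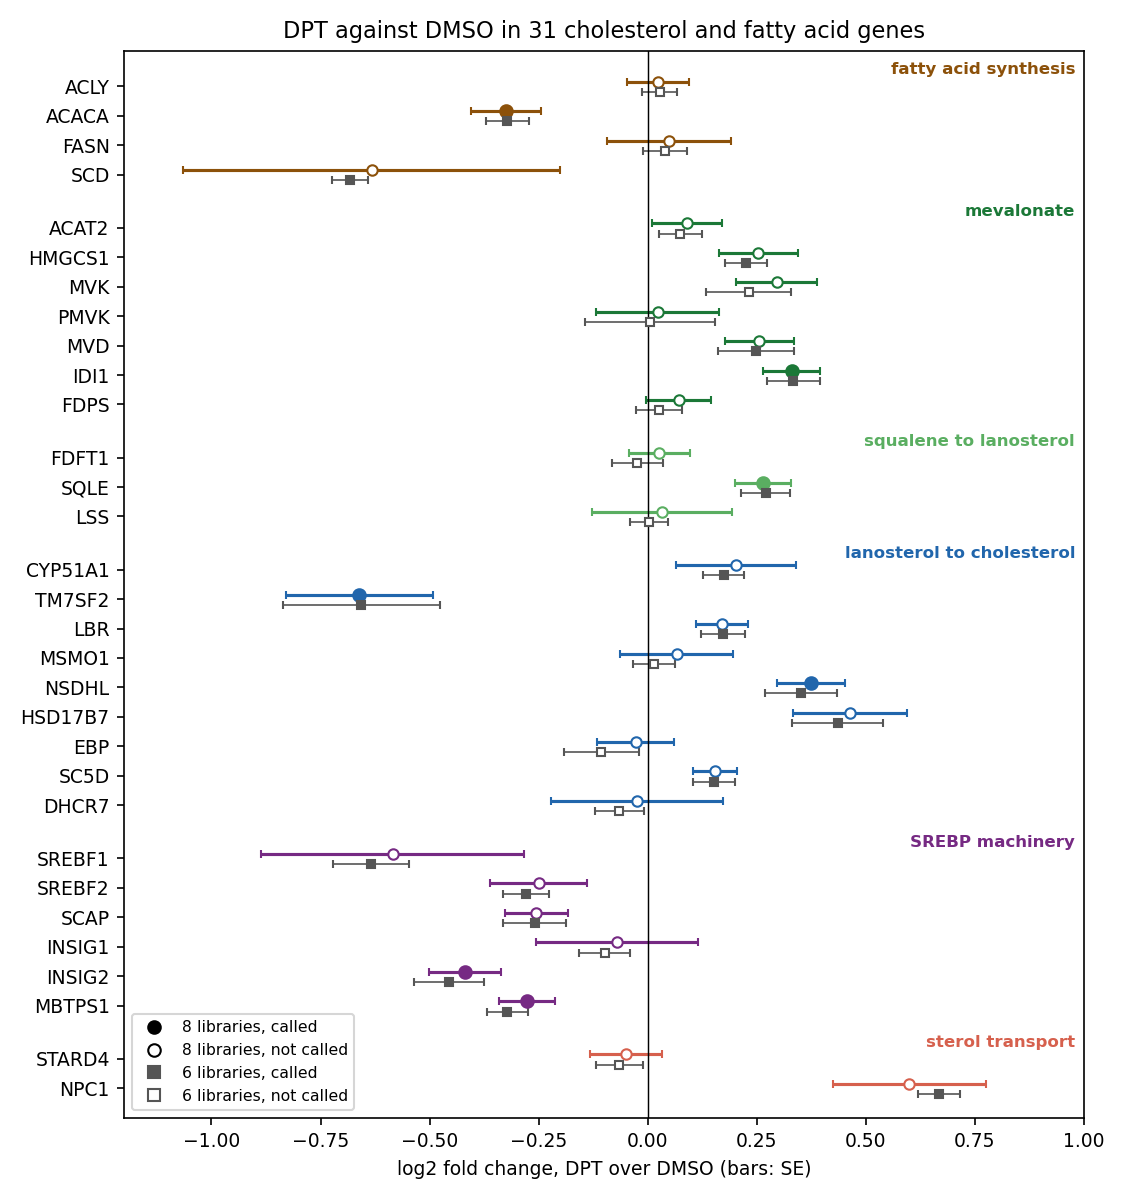
Log2 fold change of DPT over DMSO for the 31 members, by role, with bars for the SE. Circles are the fit on all 8 libraries and squares the fit on the 6 libraries without the pair, filled where the adjusted p was under 0.05; the sterol enzymes IDI1, SQLE and NSDHL lie right of 0, and all 6 genes of the SREBP machinery lie left of it.

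The mevalonate steps, which turn acetyl-CoA into farnesyl pyrophosphate, leaned upward. All 7 had a positive log2 fold change, with a median of 0.25, but only IDI1 passed the test. At an unadjusted p under 0.05 in edgeR 4 were higher and 0 lower, where 13.5% of all tested genes were higher and 13.0% lower. DESeq2 and limma on log2 CPM each called 1 higher and 0 lower, and limma on FPKM 2 and 0. IDI1, isopentenyl-diphosphate isomerase, measured 62.5, 55.0, 59.4 and 58.0 CPM in DPT replicates 1 to 4, against 47.2, 46.7, 44.3 and 48.8 CPM in DMSO replicates 1 to 4. The lowest DPT library lay above the highest DMSO library. IDI1 (ENSG00000067064, chromosome 10, 1039152 to 1049170 on GRCh38) rose 1.26-fold (log2 fold change 0.33, SE 0.0646, adjusted p = 0.0129), with 0.33 in the 6 libraries (adjusted p = 0.000410). It kept its call in all 8 fits that left out 1 library. Exons of IDI1 share 643 bases with IDI2-AS1 on the opposite strand.

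HMGCS1, the HMG-CoA synthase that commits acetyl units to the pathway, measured 163, 151, 177 and 178 CPM in the DPT libraries, against 147, 150.3, 118 and 144 CPM in the DMSO libraries. The groups barely cleared each other, with DPT replicate 2 just above DMSO replicate 2. Its log2 fold change was 0.25 (SE 0.0904, adjusted p = 0.105), and with the term for the pair it rose by 0.26 (adjusted p = 0.000389), as it did by 0.23 in the 6 libraries (adjusted p = 0.00144). The kinase MVK measured 19.6 to 23.5 CPM with DPT and 16.1 to 19.3 CPM with DMSO, and the decarboxylase MVD 28.9 to 34.7 CPM and 25.3 to 27.0 CPM, also without overlap. Their log2 fold changes of 0.30 and 0.26 missed the threshold (adjusted p = 0.0714 and 0.0675) and passed it with the term (adjusted p = 0.0159 and 0.0149). In the 6 libraries MVD kept the call and MVK did not (adjusted p = 0.0359 and 0.0771).

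The remaining mevalonate genes were close to level. ACAT2, the cytosolic thiolase of the opening step, PMVK, the phosphomevalonate kinase, and FDPS, which makes farnesyl pyrophosphate, had log2 fold changes of 0.09, 0.02 and 0.07, with adjusted p from 0.525 to 0.938. ACAT2 and PMVK were highest in the pair, at 109 and 8.63 CPM in DPT replicate 2 and 99.2 and 8.23 CPM in DMSO replicate 3. Exons of ACAT2 share 397 bases with TCP1, 1141 with SOD2 and 1458 with SOD2-OT1 on the opposite strand in GENCODE 29. Its expected counts were not whole in any of the 8 libraries, so the value of ACAT2 is uncertain.

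Of the 3 genes that carry farnesyl pyrophosphate to lanosterol, SQLE was called. SQLE, squalene epoxidase, a rate-controlling enzyme of the sterol branch, measured 74.8, 66.1, 73.8 and 69.2 CPM with DPT, against 60.01, 60.6, 55.9 and 59.9 CPM with DMSO. All DPT libraries were above all DMSO libraries. SQLE (ENSG00000104549, chromosome 8, 124998497 to 125022283) rose 1.20-fold (log2 0.26, SE 0.0635, adjusted p = 0.0280), with 0.26 in the term fit and 0.27 in the 6 libraries. The call was lost in 6 of the 8 fits with 1 library left out (adjusted p 0.0102 to 0.0920 over the 8) and held without DPT replicate 2 or DMSO replicate 3.

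FDFT1, squalene synthase, which stands just before SQLE, measured 89.3 to 101 CPM with DPT and 87.5 to 102 CPM with DMSO (log2 fold change 0.03, SE 0.0708, adjusted p = 0.852). LSS, lanosterol synthase, which stands just after it, had 180, 130.2, 185 and 179 CPM with DPT and 179.6, 181, 116 and 183 CPM with DMSO. The 3 DPT and 3 DMSO libraries outside the pair lay in the same range, at 179 to 185 CPM and 179.6 to 183 CPM, and the pair was low in both groups. In the 6 libraries the log2 difference of LSS was 0.00 (SE 0.0429, adjusted p = 0.971).

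The 9 genes from lanosterol to cholesterol were mixed, with 1 rise, 1 fall and a median log2 fold change of 0.15. NSDHL, a dehydrogenase that takes part in removing methyl groups from the sterol ring, had 31.8, 33.4, 29.3 and 28.6 CPM with DPT, against 24.1, 22.2, 24.7 and 24.0 CPM with DMSO. Its DPT libraries were all above its DMSO libraries. NSDHL (ENSG00000147383, chromosome X, 152830967 to 152869729) rose 1.297-fold (log2 0.37, SE 0.0776, adjusted p = 0.0154; 0.35 and 0.00301 in the 6 libraries), and its call was lost without DMSO replicate 2 or DMSO replicate 4, at an adjusted p of up to 0.0557.

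HSD17B7, the ketosteroid reductase of the same demethylation, had the largest positive log2 fold change among the sterol enzymes, 0.46 (SE 0.131), and an adjusted p of 0.0508. Its levels were 15.9, 13.96, 18.1 and 17.0 CPM with DPT and 11.5, 13.2, 9.46 and 13.0 CPM with DMSO. These did not overlap, and with the term for the pair it rose by 0.47 (adjusted p = 0.000999), and in the 6 libraries by 0.44 (adjusted p = 0.00362). LBR, a nuclear membrane protein that is also a sterol reductase, measured 108 to 117 CPM with DPT and 93.6 to 105 CPM with DMSO. SC5D, a sterol desaturase, spanned only 91.8 to 93.2 CPM with DPT and 82.0 to 84.3 CPM with DMSO. LBR and SC5D had log2 fold changes of 0.17 and 0.15 (adjusted p = 0.103 and 0.0791), without overlap, and rose with the term (adjusted p = 0.00795 and 0.0110) and in the 6 libraries (adjusted p = 0.0125 and 0.0211).

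TM7SF2 and LBR catalyse the same step, the reduction of the sterol ring after lanosterol demethylation, and had opposite signs. TM7SF2 measured 4.04, 2.94, 3.77 and 3.74 CPM with DPT, against 5.69, 6.71, 4.73 and 5.80 CPM with DMSO. It was low in every DPT library. TM7SF2 (ENSG00000149809, chromosome 11, 65111845 to 65116384) fell by 0.66 on the log2 scale (SE 0.168, adjusted p = 0.0345), that is 1.58-fold lower, had -0.66 in the 6 libraries (adjusted p = 0.00928), and lost its call in 6 of the 8 fits with 1 library left out. Per length, in the authors' FPKM (fragments scaled by transcript length and library size), it was also the scarcest member, at 2.90 ± 0.181 with DPT and 4.47 ± 0.753 with DMSO (SD, n = 4), while LBR stood at 31.6 ± 1.09 and 27.8 ± 1.72 FPKM.

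The other 4 genes of this stage were not called with 8 libraries. CYP51A1, lanosterol demethylase, measured 139, 106, 137 and 141 CPM with DPT and 128, 121, 85.1 and 121 CPM with DMSO, with a log2 fold change of 0.20 in the 8 libraries (adjusted p = 0.392). It rose by 0.21 with the term for the pair (adjusted p = 0.00184) and by 0.17 in the 6 libraries (adjusted p = 0.00735). MSMO1, the methyl sterol oxidase, EBP, a sterol isomerase, and DHCR7, which makes cholesterol itself, had log2 fold changes of 0.07, -0.03 and -0.02, with adjusted p from 0.798 to 0.951. EBP and DHCR7 changed sign when counts were scaled by library totals only. The expected counts of CYP51A1 and EBP were not whole in 4 libraries each, and each shares its symbol with the further identifier named above.

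**Figure D2:**
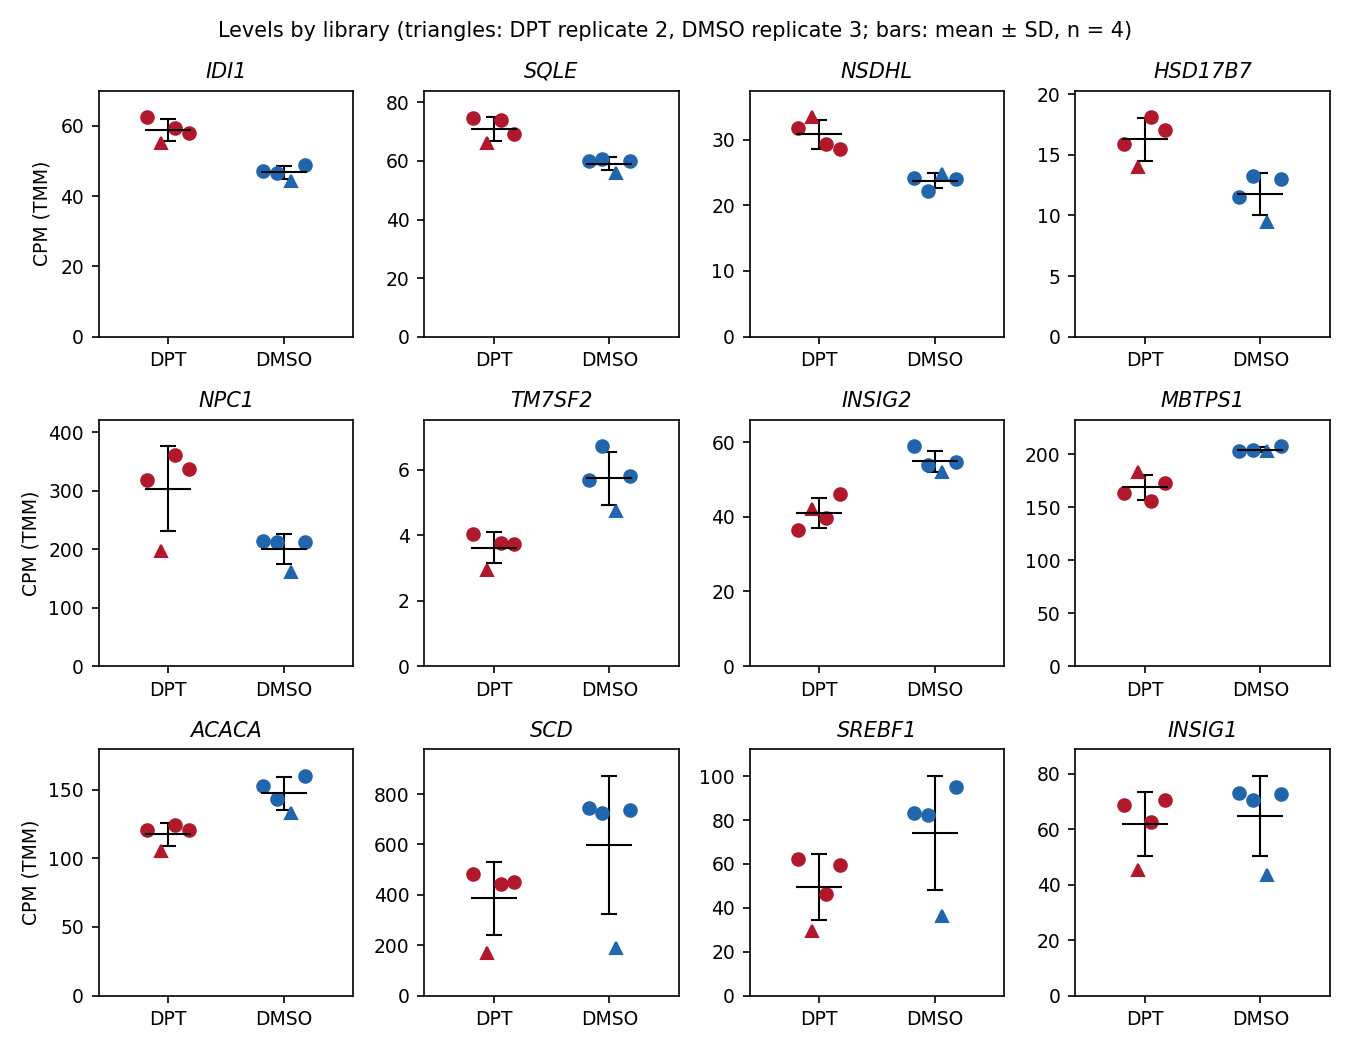
TMM-normalized CPM of 12 members in each library, DPT left and DMSO right, with the mean and SD of 4 libraries. Triangles mark the pair; IDI1, SQLE, NSDHL and HSD17B7 do not overlap between groups, while SCD spans 169 to 484 CPM with DPT and 189 to 745 CPM with DMSO, and both low points are the pair.

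All 6 genes of the SREBP machinery had a negative log2 fold change (median -0.27). The test called 2 of them lower, where 5.29% of all tested genes were. At an unadjusted p under 0.05 in edgeR 0 were higher and 3 lower, where 13.5% of all tested genes were higher and 13.0% lower. DESeq2 called 0 higher and 3 lower, and limma on log2 CPM 0 and 2. With limma on FPKM 0 were called, with 0 higher and 3 lower at an unadjusted p under 0.05. Counts over all genes for DESeq2 and limma on FPKM are in the closing section. INSIG2, which anchors SCAP in the endoplasmic reticulum, measured 36.3, 42.0, 39.6 and 46.1 CPM with DPT, against 58.9, 54.0, 52.0 and 54.7 CPM with DMSO. Every DPT library was below every DMSO library. INSIG2 (ENSG00000125629, chromosome 2, 118088452 to 118110997) fell by 0.42 (SE 0.0834, adjusted p = 0.0136), that is 1.34-fold, had -0.46 in the 6 libraries (adjusted p = 0.000281), and lost its call only without DMSO replicate 1 (adjusted p = 0.0504) among the fits with 1 library left out.

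INSIG1, its relative and itself an SREBP target, differed mainly between the pair and the rest. It had 68.7, 45.2, 62.4 and 70.7 CPM with DPT and 73.0, 70.4, 43.3 and 72.6 CPM with DMSO, so that the groups overlapped. The log2 fold change was -0.07 (SE 0.186, adjusted p = 0.857) with 8 libraries and -0.10 (SE 0.0589, adjusted p = 0.216) in the 6, and it was positive, at 0.05, without DPT replicate 2.

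MBTPS1, the Golgi protease that makes the opening cut in the SREBP precursors, measured 164, 183, 155 and 173 CPM with DPT, against a very even 203, 204, 203 and 207 CPM with DMSO. It was lower in every DPT library. MBTPS1 (ENSG00000140943, chromosome 16, 84053761 to 84116906) fell by 0.28 (SE 0.0638, adjusted p = 0.0245), or 1.21-fold, and by 0.32 in the 6 libraries (adjusted p = 4.81e-05). Its call was lost in 6 of the 8 fits with 1 library left out, with adjusted p up to 0.0814. SCAP, the escort of the SREBPs, had 31.02, 33.9, 29.5 and 30.6 CPM with DPT and 36.1, 36.4, 40.1 and 36.5 CPM with DMSO, without overlap, and just missed the threshold (log2 -0.26, SE 0.0721, adjusted p = 0.0508). It fell by 0.25 once the pair had its own term (adjusted p = 0.00378) and by 0.26 in the 6 libraries (adjusted p = 0.00969).

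The SREBP genes themselves depended on the pair. SREBF1 measured 62.3, 29.7, 46.4 and 59.4 CPM with DPT, against 83.1, 82.5, 36.3 and 94.997 CPM with DMSO. Outside the pair all 3 DPT libraries were below all 3 DMSO libraries, and within it DPT replicate 2 was below DMSO replicate 3. Its log2 fold change was -0.58 in the 8 libraries (SE 0.302, adjusted p = 0.253), -0.63 in the 6 (SE 0.0869, adjusted p = 2.27e-05) and -0.56 in the term fit (adjusted p = 0.000132). SREBF2 had 172, 132, 149 and 155 CPM with DPT and 196, 186, 146 and 195 CPM with DMSO, with a log2 fold change of -0.25 (adjusted p = 0.189) that passed in the 6 libraries (-0.28, adjusted p = 0.000605). Exons of SREBF1 share 556 bases with RAI1 on the opposite strand.

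Sequence before RefSeq starts was searched because SREBP and its partner NF-Y can bind near the starts of their target genes. RefSeq promoter windows on GRCh38.p14, here the 250 bases before the start, were found for 27 of the 31 members (36 windows). Motifs were searched on both strands, with overlaps between motifs allowed. The sterol element TCACNCCAC, to which SREBP binds, was in 1 member window and in 0.883% of all 35116 windows, and its shorter form CACNCCAC, which every match of the longer one contains, in 6 member windows and 4.87% of all. The box CCAAT, bound by NF-Y, was in 23 member windows and 32.0% of all, and the E-box CACGTG in 4 and 6.34%.

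Among members with a window, by the fit with the term for the pair, CCAAT was in a window of 7 of the 10 that rose. It was in a window of 4 of the 8 that fell and of 8 of the 9 not called. NSDHL, which rose, had 5 matches, and INSIG2, which fell, had neither CCAAT nor CACNCCAC in either of its windows. CYP51A1, LBR and NPC1, which rose with the term, had no match of CCAAT, and ACACA, SCD, SREBF2 and TM7SF2, which fell, had it. The 4 windows below show the many matches of NSDHL and the lack of any in INSIG2, beside INSIG1 and SREBF2, each with 1 match of CACNCCAC and 1 of CCAAT. Capitals mark CACNCCAC and CCAAT on either strand, so that ATTGG is CCAAT read from the other strand, and all are printed along the plus strand, which each of these genes is read from.
NSDHL, chrX:152830813-152831062: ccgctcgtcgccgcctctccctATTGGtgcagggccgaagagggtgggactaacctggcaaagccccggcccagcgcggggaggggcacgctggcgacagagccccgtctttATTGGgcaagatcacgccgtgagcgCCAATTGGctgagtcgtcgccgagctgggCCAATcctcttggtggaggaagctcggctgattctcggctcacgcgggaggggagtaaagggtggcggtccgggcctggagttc
INSIG2, chr2:118088221-118088470: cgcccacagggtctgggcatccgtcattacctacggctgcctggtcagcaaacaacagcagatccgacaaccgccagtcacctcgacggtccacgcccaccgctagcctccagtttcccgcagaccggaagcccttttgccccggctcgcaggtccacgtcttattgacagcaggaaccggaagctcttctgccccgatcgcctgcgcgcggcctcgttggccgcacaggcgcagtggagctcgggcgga
INSIG1, chr7:155297628-155297877: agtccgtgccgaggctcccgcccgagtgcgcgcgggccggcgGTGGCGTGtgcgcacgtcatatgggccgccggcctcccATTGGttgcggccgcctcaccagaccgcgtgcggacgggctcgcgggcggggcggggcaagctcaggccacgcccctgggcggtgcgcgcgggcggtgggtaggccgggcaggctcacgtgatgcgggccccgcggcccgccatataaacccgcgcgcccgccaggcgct
SREBF2, chr22:41832855-41833104: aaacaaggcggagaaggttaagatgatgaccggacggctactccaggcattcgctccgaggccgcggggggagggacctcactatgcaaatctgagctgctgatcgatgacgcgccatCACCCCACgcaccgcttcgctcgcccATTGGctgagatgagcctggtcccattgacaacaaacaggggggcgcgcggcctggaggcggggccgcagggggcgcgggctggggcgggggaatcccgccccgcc
In SREBF2 the match begins at position -132 from the start and, with the T before it, makes the longer sterol element, in INSIG1 it begins at -208, and the boxes of NSDHL begin between -228 and -84. A match is a description of these letters and not a measured binding site.

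NPC1, the lysosomal protein that passes cholesterol out of the lysosome, had the largest positive log2 fold change of all 31 members. It measured 318, 198, 360.4 and 338 CPM with DPT, against 215, 212, 162 and 212 CPM with DMSO. Outside the pair the DPT libraries were at 318 CPM or more and the DMSO libraries at 215 CPM or less, and in the pair the DPT library was the higher one. Because DPT replicate 2 fell below 3 DMSO libraries, the groups overlapped. The 8 libraries gave 0.60 (SE 0.176, adjusted p = 0.0576), the term fit 0.58 (adjusted p = 2.32e-06) and the 6 libraries 0.67 (SE 0.0474, adjusted p = 8.98e-09).

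The difference of NPC1 between DPT replicate 2 and DMSO replicate 3 was 0.29 log2, smaller than the 0.67 of the other 6 libraries; the gap between these values was not tested. Its expected counts were not whole in 5 libraries, and its exons share 604 bases with RMC1 on the opposite strand. STARD4, a cytosolic carrier of cholesterol and a known SREBP target, measured 155 to 183 CPM with DPT and 155 to 196 CPM with DMSO (log2 fold change -0.05, adjusted p = 0.763).

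In fatty acid synthesis the log2 fold changes ran from -0.63 to 0.05, and 1 of the 4 genes was called. ACACA, acetyl-CoA carboxylase, which makes malonyl-CoA, had 120.3, 105, 124 and 120.3 CPM with DPT, against 153, 143, 133 and 160.0 CPM with DMSO. The groups did not overlap. ACACA (ENSG00000278540, chromosome 17, 37084988 to 37406818) fell by 0.32 (SE 0.0792, adjusted p = 0.0295), or 1.25-fold, with the same size in the term fit and the 6 libraries, but kept its call in only 2 of the 8 fits that left out 1 library, those without DPT replicate 2 or DMSO replicate 3.

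SCD, the desaturase that makes monounsaturated fatty acids, had 484, 169, 442 and 449 CPM with DPT, against 745, 725, 189 and 736 CPM with DMSO. The pair set the overlap. The 3 other DPT libraries were far below the 3 other DMSO libraries, while the pair was low in both groups and DPT replicate 2 was a little below DMSO replicate 3. The log2 fold change was -0.63 (SE 0.433, adjusted p = 0.398) with 8 libraries, -0.56 (adjusted p = 1.14e-05) with the term and -0.68 (SE 0.0413, adjusted p = 1.33e-09) in the 6. The difference within the pair was -0.16, and the gap between it and the 6-library value was not tested.

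ACLY, which supplies cytosolic acetyl-CoA, and FASN, the fatty acid synthase, were not called in any of the 3 fits. ACLY measured 403 to 463 CPM with DPT and 401 to 461 CPM with DMSO, and FASN 246 to 367 CPM and 232 to 333 CPM. Their log2 fold changes were 0.02 (SE 0.0714, adjusted p = 0.876) and 0.05 (SE 0.143, adjusted p = 0.870), and FASN was negative without DMSO replicate 3 (-0.06). Per length, ACLY and SCD were the most abundant members in DMSO. ACLY stood at 110.0 ± 8.68 FPKM with DPT and 106 ± 7.27 FPKM with DMSO, and SCD at 74.7 ± 28.3 FPKM with DPT and 112 ± 50.9 FPKM with DMSO (SD, n = 4). The order of ACLY and SCD in DMSO does not exceed that spread.

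**Figure D3:**
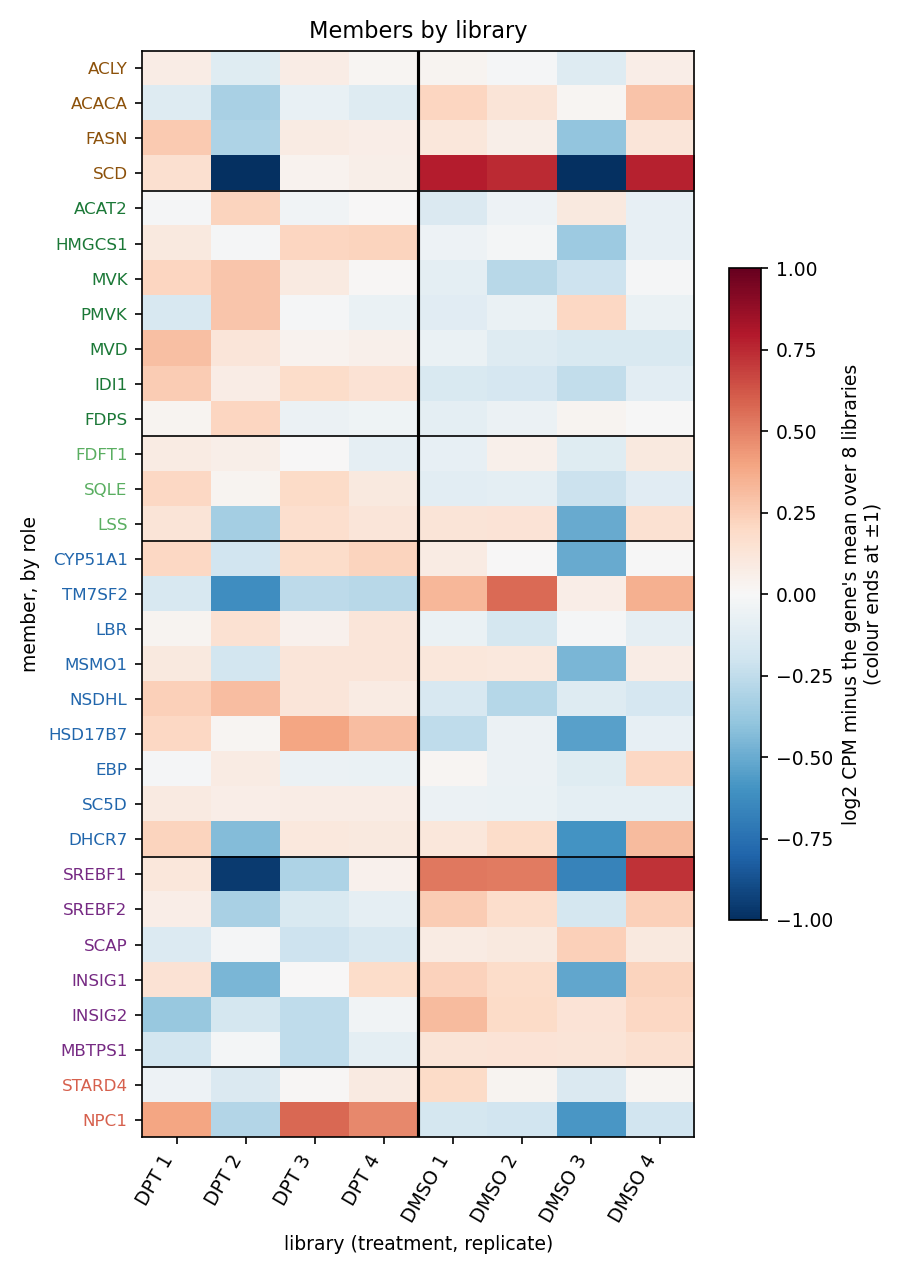
Log2 CPM of each member minus its own mean over the 8 libraries, with members by role down the page and DPT libraries left of DMSO libraries. The INSIG2 and MBTPS1 rows are lower across DPT 1 to 4 than across DMSO 1 to 4, and SCD, SREBF1, DHCR7, INSIG1 and LSS are lowest in DPT 2 and DMSO 3.

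The pair differed from the other 6 libraries in the pathway more than DPT differed from DMSO for several members. In the fit with a term for the pair, 23 of the 31 members were lower in the pair, with a median of -0.17 log2, against -0.01 over all tested genes. SCD stood 1.69 log2 lower in the pair (a coefficient of -1.69), SREBF1 had -1.09, DHCR7 -0.69, INSIG1 -0.65, NPC1 -0.58, LSS -0.56, FASN -0.47, CYP51A1 -0.46 and MSMO1 -0.42. Other members were higher in the pair, led by PMVK at 0.33, ACAT2 at 0.21 and FDPS at 0.17. The pair was recognised from these data, so its coefficients are a description with no test. SCD, SREBF1 and NPC1 were also among the members with the largest log2 fold change of DPT over DMSO, while the called IDI1, NSDHL, INSIG2 and MBTPS1 had pair coefficients of -0.11, 0.12, -0.03 and 0.07.

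**Figure D4:**
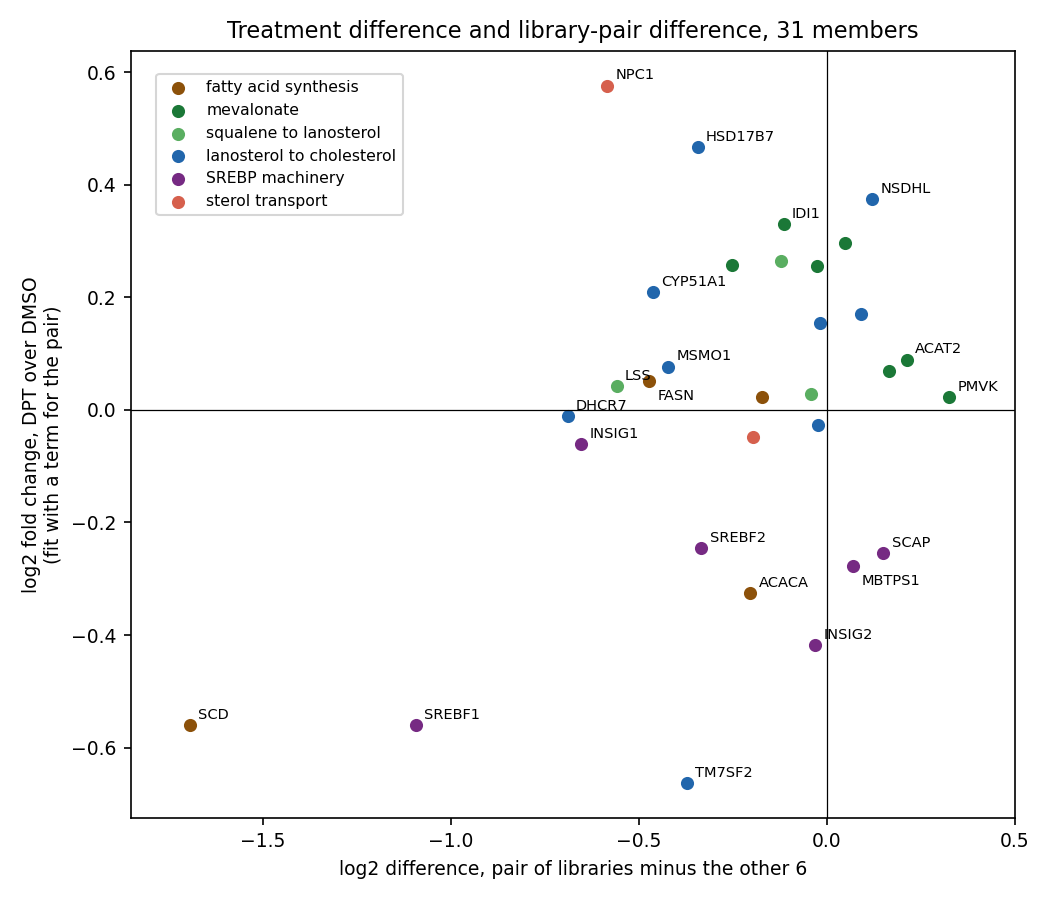
For each member, the log2 difference between the pair and the other 6 libraries (horizontal) and the log2 fold change of DPT over DMSO in the same fit (vertical), coloured by role. SCD at -1.69 and SREBF1 at -1.09 lie far left and below 0, NPC1 lies left and above 0, and INSIG2 and MBTPS1 lie below 0 close to the vertical line.

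Of other genes of lipid metabolism, 32 in 4 lists, 31 were tested, and 8 had a positive and 23 a negative log2 fold change (median -0.15). The negative ones prevailed in 3 lists, while the isoprenoid list had 5 positive and 2 negative (median 0.02). With 8 libraries 2 rose and 4 fell, where 5.68% and 5.29% of all tested genes did. With the term 2 rose and 12 fell, against 16.9% and 17.0%, and in the 6 libraries 2 rose and 15 fell, against 17.0% and 17.1%. Among 11 further SREBP targets, most of them genes of fatty acid metabolism, 10 had a negative log2 fold change and ME1 alone was called. At an unadjusted p under 0.05 in edgeR 0 were higher and 4 lower, where 13.5% and 13.0% of all tested genes were. DESeq2 and limma each called 0 higher and 1 lower. ME1, malic enzyme, which supplies NADPH for lipid synthesis, fell by 0.33 to 100.4 ± 2.21 CPM with DPT, against 126 ± 7.10 CPM with DMSO (SD, n = 4, adjusted p = 0.00936), and by 0.29 in the 6 libraries (adjusted p = 0.000119). The desaturases FADS1 and FADS2 had log2 fold changes of -0.27 and -0.47 (adjusted p = 0.277 and 0.170) and fell with the term (adjusted p = 0.00130 and 0.000193) and in the 6 libraries by 0.34 and 0.55.

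LXR and sterol efflux genes (6 tested) held 2 falls, where 5.29% of all tested genes were called lower. ABCG1, a sterol exporter and LXR target, had 7.22, 1.74, 3.23 and 3.80 CPM with DPT, against 16.7, 14.98, 4.96 and 16.0 CPM with DMSO. DMSO replicate 3 lay within the DPT range, so the groups overlapped. ABCG1 fell by 1.71 (SE 0.454, adjusted p = 0.0401), or 3.28-fold, and LPCAT3, a phospholipid acyltransferase that LXR also controls, by 0.65 (adjusted p = 0.0425). ABCG1 lost its call in 5 and LPCAT3 in 6 of the 8 fits with 1 library left out, while with the term for the pair they fell by 1.70 and 0.65 (adjusted p = 5.18e-06 and 1.70e-05), and in the 6 libraries by 1.74 and 0.63.

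Among 7 tested genes of sterol uptake, storage and release, a list that also held the SREBP protease MBTPS2, SOAT1 rose and SCARB1 fell. SOAT1, which esterifies cholesterol for storage, measured 149, 146, 169 and 159 CPM with DPT, against 127, 121, 128 and 121 CPM with DMSO (1.25-fold, adjusted p = 0.0137). SCARB1, a receptor for high-density lipoprotein, measured 68.6, 69.9, 65.1 and 66.1 CPM with DPT, against 83.1, 83.8, 90.6 and 88.9 CPM with DMSO (1.28-fold lower, adjusted p = 0.00587). Neither gene overlapped between the groups, and in the 6 libraries their log2 fold changes were 0.37 and -0.36, both called. MBTPS2, which cuts SREBP after MBTPS1, was lower without overlap (log2 -0.24, adjusted p = 0.0552) and was called in the 6 libraries (-0.25, adjusted p = 0.0127). Of the 7 genes 1 was called higher and 5 lower there, where 17.0% and 17.1% of all tested genes were. CH25H, which makes an oxysterol, was not tested, at 0.0600 to 0.857 CPM with DPT and 0.136 to 0.330 CPM with DMSO. Of the 7 isoprenoid genes DHDDS, a subunit of the enzyme that makes dolichol precursors, rose 1.20-fold to 47.9 ± 1.97 CPM with DPT, against 40.0 ± 0.998 CPM with DMSO (SD, n = 4, adjusted p = 0.0255), with a log2 fold change of 0.28 in the 6 libraries (adjusted p = 0.00415), and the other 6 were not called.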

How the data were processed

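Per the labels' protocols, total RNA (Trizol) was selected on oligo(dT) beads and made into libraries with a NEBNext Ultra kit. The submitters' processing notes name the build hg38 and the tools HISAT2, RSEM, DESeq2, StringTie 1.3.1 and fastp 0.18.0. Not given in the sources used here were the role of each tool, the annotation and the use of strand. Overlapping genes may therefore share reads. Besides the overlaps named above, exons of HMGCS1 share 703 bases with AC114947.2 and those of FDPS 693 with RUSC1-AS1, on the opposite strand. Not every overlap of a member is listed here. The deposited values are, per the file headers, a count and an FPKM per gene and library, which the authors made upstream. The counts are expected counts as the authors deposited them, since 10.8% were not whole (tolerance 1e-06).

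Counts were rounded and tested with edgeR 4.0.16 in R 4.3.3 (filterByExpr defaults, a minimum count of 10 and total of 15; TMM; an intercept and a treatment term), checked on simulated data. Adjusted p is Benjamini-Hochberg over all tested genes. CPM is TMM-normalized, and 1 CPM was about 15.0 counts in the smallest library. Fold changes are DPT over DMSO. The SE printed was derived from the edgeR test, as the log2 fold change without its sign over the square root of the F statistic. Alternatives were DESeq2 1.42.0, limma 3.58.1 on log2 CPM (prior count 2) and on log2(FPKM + 0.1), other scalings and filters, a replicate block, a term for the pair, and fits without 1 library or the pair.

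The members, lists and alternatives were chosen with earlier results of these data known. Named genes are all members and, per other list, up to 2 called genes in each direction by smallest adjusted p. FADS1, FADS2, CH25H, MBTPS2 and the markers named beside them were added after their values were seen. Some genes of the pathway are not reported here. The labels give no origin of the replicates beyond their number; the design text calls them biological. Deviations of same-numbered libraries correlated at 0.20, -0.31, -0.40 and 0.21. The negative values each involve a library of the pair, and DPT replicate 2 and DMSO replicate 3 correlated at 0.68. These values therefore cannot decide whether replicate numbers pair the libraries. Positions are from GENCODE 29 (GRCh38), matched by Ensembl identifier.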

Additional observations from a re-analysis of the deposited data

Results flagged for a closer look

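Looked at were 74 groups of 4 libraries, for 31 members and the 6 other called genes, in DPT and in DMSO. In 15 of them a library lay far from the other 3. For independent groups of normal values the rule flags about 1 group in 20. The groups here share the same libraries, and the share flagged among all tested genes was not computed. All 15 flagged libraries were DPT replicate 2 or DMSO replicate 3. With DPT, replicate 2 was lowest for SCD (169 CPM, others 442 to 484), LSS (130.2, others 179 to 185), CYP51A1 (106, others 137 to 141) and MSMO1 (74.7, others 91.0 to 92.2), and highest for ACAT2 (109, others 90.7 to 93.0). With DMSO, replicate 3 was lowest for FASN (232 CPM, others 318 to 333), SCD (189, others 725 to 745), SQLE (55.9, others 59.9 to 60.6), LSS (116, others 179.6 to 183), MSMO1 (61.9, others 89.3 to 91.8), INSIG1 (43.3, others 70.4 to 73.0), NPC1 (162, others 212 to 215) and ABCG1 (4.96, others 14.98 to 16.7). It was highest for PMVK (8.23 CPM, others 6.57 to 6.79) and SCAP (40.1, others 36.1 to 36.5). Interferon-stimulated and mitosis genes separate the same libraries, and their part in these values was not tested.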

How the results depend on the processing

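The cells are 1 line, and the SE of a log2 fold change was 0.0499 or more for every member in the 8 libraries. In all, 1387 genes were called, 718 higher and 669 lower. A replicate block gave 345 (171 and 174), the term for the pair 4296 (2140 and 2156) and the 6 libraries without it 4327 (2158 and 2169). Leaving out 1 library gave 643 to 2291 (332 to 1183 and 311 to 1108), the highest without DPT replicate 2 and the lowest without DPT replicate 4. Higher genes were 51.8% of the calls. FPKM with limma gave 738 higher and 336 lower (68.7% higher), and scaling by library totals 969 and 523 (64.9% higher), while DESeq2 gave 969 and 954. Of the members, 7 were called, 3 higher and 4 lower. DESeq2 called 11 (6 and 5), library totals 12 (8 and 4), FPKM 6 (5 and 1), the term for the pair 19 (11 and 8) and the 6 libraries 18 (10 and 8). The replicate block in edgeR called 0, with 7 higher and 6 lower at an unadjusted p under 0.05; same-numbered libraries did not correlate best with each other. Leaving out 1 library called 2 to 11 members, 1 to 6 higher and 0 to 6 lower: 9 without DMSO replicate 3, 11 without DPT replicate 2, and 2 or 3 without any other. No member was called lower without DMSO replicate 1, where 5 were at an unadjusted p under 0.05. Of the other lists 6 genes were called, 0 with the replicate block (2 higher and 5 lower unadjusted), 14 with the term, 17 in the 6 libraries and 2 to 10 with 1 library left out. Of the 6, ME1 and SCARB1 kept their calls in all 8 of these fits, and SOAT1 and DHDDS lost theirs in 3 and 5. The sign turned only for genes not called: FDFT1 (-0.023 in the 6 libraries), EBP (0.015 with library totals, 0.018 with FPKM), DHCR7 (0.019 and 0.037) and STARD4 (0.018 with FPKM). With 1 library left out the log2 fold changes ranged over -0.019 to 0.066 for ACLY, -0.064 to 0.15 for FASN, -0.076 to 0.10 for PMVK, -0.012 to 0.061 for FDFT1, -0.11 to 0.14 for LSS, -0.058 to 0.13 for MSMO1, -0.076 to 0.039 for EBP, -0.19 to 0.10 for DHCR7, -0.23 to 0.054 for INSIG1 and -0.11 to 0.0088 for STARD4. Causes were not tested. RLE factors, limma on log2 CPM, no filter and a stricter filter moved no count by over 1.5 times.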
